A study of Mus musculus with 67 samples.

Results

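This report describes 9 transcription factors that set or mark the fate of helper and regulatory T cells: *Tbx21*, *Gata3*, *Rora*, *Foxp3*, *Ikzf2*, *Maf*, *Tcf7*, *Lef1* and *Tox*. They were chosen by name, with earlier results of these data known, out of 35612 genes in the tables of the series. The series holds RNA-seq of lymphocytes, CD4+ T or B cells, which kits had enriched from spleens and inguinal and brachial lymph nodes. The C57BL/6 donor mice were either naive or immunized with MOG peptide to induce experimental autoimmune encephalomyelitis (EAE), a disease in which T cells attack myelin. There were 4 sets (naive T, EAE T, naive B and EAE B), and every set had 5 groups of 3 libraries, 60 in all. One group was left unstimulated. In the others, receptor engagement lasted 18 h and came from latex beads coated with anti-CD3 (T cells) or anti-IgM/IgG (B cells) together with either control Ig or anti-Btla, each with or without soluble interferon beta (IFNb). No deletion or transgene is named for any group. The time between immunization and harvest and the number of animals behind a library are not given in the labels, so p-values measure the spread between these libraries, which may be partly technical.

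Helper T cells take on alternative fates, and each fate is tied to a leading transcription factor. T-bet, encoded by *Tbx21*, directs the Th1 fate and interferon gamma production. GATA-3 directs the Th2 fate, and ROR alpha, encoded by *Rora*, acts beside ROR gamma t in Th17 cells. c-Maf, from *Maf*, is found in follicular helper, Th17 and Il10-producing cells. FoxP3 defines regulatory T (Treg) cells, many of which also carry Helios, the product of *Ikzf2*. TCF-1 (*Tcf7*) and LEF-1 (*Lef1*) are related DNA-binding proteins that mark resting and memory-like T cells and lie downstream of Wnt signaling. TOX is needed for CD4 lineage development in the thymus and is also known from follicular helper and exhausted T cells.

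The T cell libraries held 7331350 to 34165500 counts (median 13194200) and the B cell libraries 6694410 to 62073700 (median 33019150). The labelled cell types were checked against marker genes. The summed level of 5 T cell markers was 1178 to 2043 CPM (counts scaled to a common library total) in T cell libraries and 1.82 to 5.63 CPM in B cell libraries. Libraries labelled naive CD4+ T also held transcripts of CD8 T cells. *Cd8a* and *Cd8b1* summed to 501 to 1096 CPM in the 15 naive T libraries against 13.2 to 26.2 CPM in the 15 EAE T libraries, so the naive and EAE sets differ in this respect in every library. In unstimulated naive T cells *Cd4* averaged 527.8 CPM beside 687 CPM of *Cd8b1* and 308.9 CPM of *Cd8a*. The same genes averaged 710.1, 18.56 and 4.328 CPM in unstimulated EAE T cells. The naive T libraries can therefore not be taken as CD4+ T cells alone, and EAE against naive is not a comparison of helper cells only. In bulk RNA, fewer cells of a type and less RNA per cell cannot be told apart, and this holds for every difference given here.

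*Tcf7* and *Lef1* dominated the 9 factors in resting T cells. In TPM, the unit of transcript abundance that allows for length, naive unstimulated T cells held 948 ± 71.3 (SD, n = 3) TPM of *Tcf7* and 739 ± 185 TPM of *Lef1*. *Tox* followed at 23.8 ± 2.76 TPM, *Ikzf2* at 16.97 ± 2.55, *Foxp3* at 13.9 ± 0.563, *Gata3* at 12.7 ± 4.28 and *Rora* at 8.36 ± 2.08 TPM. *Maf* at 2.99 ± 1.11 TPM and *Tbx21* at 0.389 ± 0.0985 TPM were lowest. In this order the mean ± SD ranges overlapped between *Tcf7* and *Lef1*, and between each neighbouring pair from *Ikzf2* to *Rora*. In EAE unstimulated T cells *Tcf7* (900.3 ± 114 TPM) and *Lef1* (727 ± 226 TPM) again came first, and *Foxp3* was next at 53.1 ± 9.44 TPM. *Ikzf2* (28.4 ± 7.26 TPM), *Tox* (22.3 ± 0.851 TPM) and *Rora* (21.4 ± 2.15 TPM) overlapped in their mean ± SD ranges, followed by *Gata3* (14.5 ± 1.92 TPM), *Maf* (8.67 ± 1.99 TPM) and *Tbx21* (2.50 ± 0.270 TPM). *Foxp3* thus had 4 factors above it in naive and 2 in EAE resting cells. The *Lef1* values rest partly on a short transcript described further on.

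**Figure D1:**
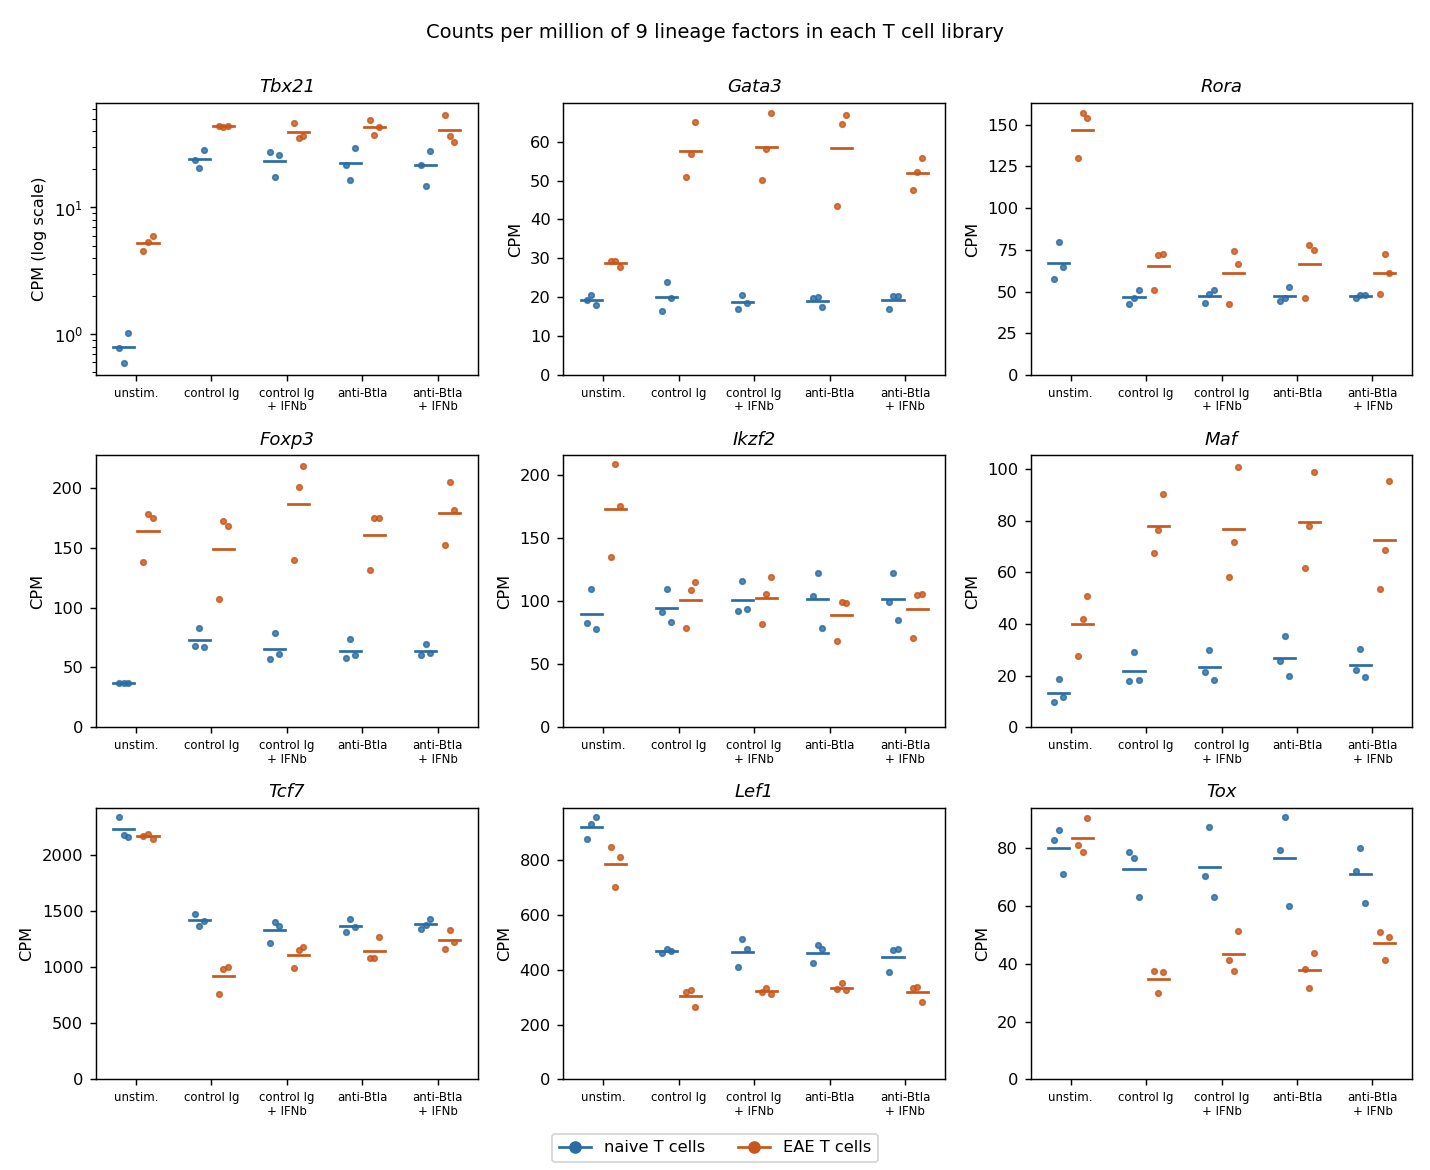
Level of each factor in CPM in the 30 T cell libraries, by culture condition on the horizontal axis (points: libraries; lines: group means of 3; blue: naive; orange: EAE; the *Tbx21* axis is logarithmic). *Tcf7* and *Lef1* were highest in both unstimulated groups, *Tbx21* was lowest there, and *Tcf7* ran from 765 to 2342 CPM over all 30 libraries.

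The 9 genes are placed here by GENCODE M21 on GRCm38. *Tbx21* lies on chromosome 11 from 97098071 to 97115331 on the minus strand, and *Tcf7* on the same chromosome from 52252371 to 52283014, minus strand. *Gata3* lies on chromosome 2 (9857078 to 9890034, minus), *Rora* on chromosome 9 (68653786 to 69388246, plus) and *Foxp3* on chromosome X (7573644 to 7595245, plus). *Ikzf2* lies on chromosome 1 (69531214 to 69687245, minus), *Maf* on chromosome 8 (115682942 to 115707794, minus), *Lef1* on chromosome 3 (131110471 to 131224356, plus) and *Tox* on chromosome 4 (6686353 to 6991557, minus). *Foxp3* has the largest overlap with a gene on its own strand, 853 of its 4577 exon bases with the noncoding RNA *Flicr*, plus 1229 bases with opposite-strand genes that include *Ppp1r3f* and *Ccdc22*. The strand setting of the counting is not given in the sources used here, so reads in those bases cannot be assigned with certainty.

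The sequences just upstream of *Tbx21* and *Lef1* are shown. By summed counts these were the factors that rose most and fell most on activation in both T cell sets. In EAE T cells the *Lef1* fall depended on how its transcripts were added up, as described further on. RefSeq promoter windows (GRCm38.p6) were available for 6 of the 9 genes. The 250 bases before the first RefSeq start are printed 5′ to 3′ on the gene's strand, chr11:97115332-97115581 (minus) for *Tbx21* and chr3:131110047-131110296 (plus) for *Lef1*. Capitals mark GC boxes, the letters GGGCGG on either strand.
Tbx21: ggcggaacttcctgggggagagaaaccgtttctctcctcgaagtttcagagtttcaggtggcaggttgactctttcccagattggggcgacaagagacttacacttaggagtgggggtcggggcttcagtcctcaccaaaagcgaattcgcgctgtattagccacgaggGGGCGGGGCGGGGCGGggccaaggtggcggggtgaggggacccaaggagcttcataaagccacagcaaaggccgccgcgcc
Lef1: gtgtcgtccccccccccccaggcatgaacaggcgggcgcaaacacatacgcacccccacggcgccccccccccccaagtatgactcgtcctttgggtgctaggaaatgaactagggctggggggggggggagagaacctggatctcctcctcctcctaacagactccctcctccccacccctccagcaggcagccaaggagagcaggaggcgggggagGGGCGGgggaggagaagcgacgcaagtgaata
*Tbx21* held 3 GC boxes that overlapped end to end, and *Lef1* held 1, where 32.7% of 32851 RefSeq windows of this length held at least 1. Neither held CTTTGA (a Tcf/Lef core, in 13.8% of windows on either strand), TGANTCA (AP-1, 6.75%), GGAAAA (NFAT, 20.4%), AGGTGTGA (T-box, 1.12%) or AGATAA (known for GATA factors, 9.99%). These matches describe letters in a short window only.

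Anti-CD3 activation was compared with no stimulation, both without anti-Btla or IFNb, to see which lineage factors move when the T cell receptor is engaged. *Tbx21* showed the largest change. In naive T cells it stood at 0.779, 0.599 and 1.02 CPM unstimulated and at 23.6, 20.4 and 28.4 CPM with control Ig beads. No activated library overlapped an unstimulated library, and *Tbx21* rose 31.1-fold (log2 change 4.96 ± 0.18 SE, adjusted p = 8.65e-14 in edgeR's quasi-likelihood test with Benjamini-Hochberg adjustment). The EAE T cells stood at 4.54, 5.32 and 5.98 CPM unstimulated and at 43.7, 43.4 and 43.7 CPM activated. It rose 8.15-fold there (log2 change 3.03 ± 0.16, adjusted p = 3.18e-10), from a higher start.

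*Tcf7* and *Lef1* fell in both sets. *Tcf7* went from 2342, 2181 and 2164 CPM to 1476, 1369 and 1412 CPM in naive T cells, and from 2173, 2187 and 2144 CPM to 765, 985 and 1005 CPM in EAE T cells. Activated and unstimulated libraries did not overlap in either set. The level was 1.51-fold lower after activation in naive T cells (log2 change -0.59 ± 0.050, adjusted p = 1.13e-08) and 2.30-fold lower in EAE T cells (log2 change -1.20 ± 0.089, adjusted p = 9.28e-09). *Lef1* went from 878, 932 and 956 CPM to 462, 475 and 469 CPM in naive T cells, 1.89-fold lower (log2 change -0.92 ± 0.044, adjusted p = 5.47e-12). *Lef1* in EAE T cells went from 847, 701 and 813 CPM to 320, 326 and 264 CPM, 2.53-fold lower (log2 change -1.34 ± 0.083, adjusted p = 1.38e-09).

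The fall of *Lef1* depended on how its transcripts were added up. With counts scaled by transcript length, the change in EAE T cells was -0.13 ± 0.27 (adjusted p = 0.702). Such scaling gives short transcripts more weight. *Lef1-208* is a retained-intron form of 345 bases, of which 303 bases lie in exons 2, 3 and 4 of the protein-coding *Lef1-201* and 42 bases in its introns. *Lef1-201* has 3482 bases. It held 579 ± 14.6 CPM (SD, n = 3) in unstimulated and 292 ± 4.67 CPM in activated naive T cells, and 517 ± 42.7 and 153 ± 19.4 CPM in EAE T cells, which is 1.99-fold and 3.37-fold lower after activation. *Lef1-208* held 39.7 ± 21.5 and 37.3 ± 13.7 CPM in naive and 50.7 ± 36.4 and 62.0 ± 8.14 CPM in EAE T cells. Its share of all *Lef1* counts was therefore 4.25% ± 2.15 and 7.94% ± 2.89 in naive and 6.34% ± 4.36 and 20.4% ± 0.414 in EAE T cells. With *Lef1-208* left out, an alternative chosen after the data were seen, the log2 change was -0.97 ± 0.048 in naive and -1.57 ± 0.087 in EAE T cells (adjusted p = 7.7e-12 and 4.22e-10, edgeR quasi-likelihood test).

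**Figure D2:**
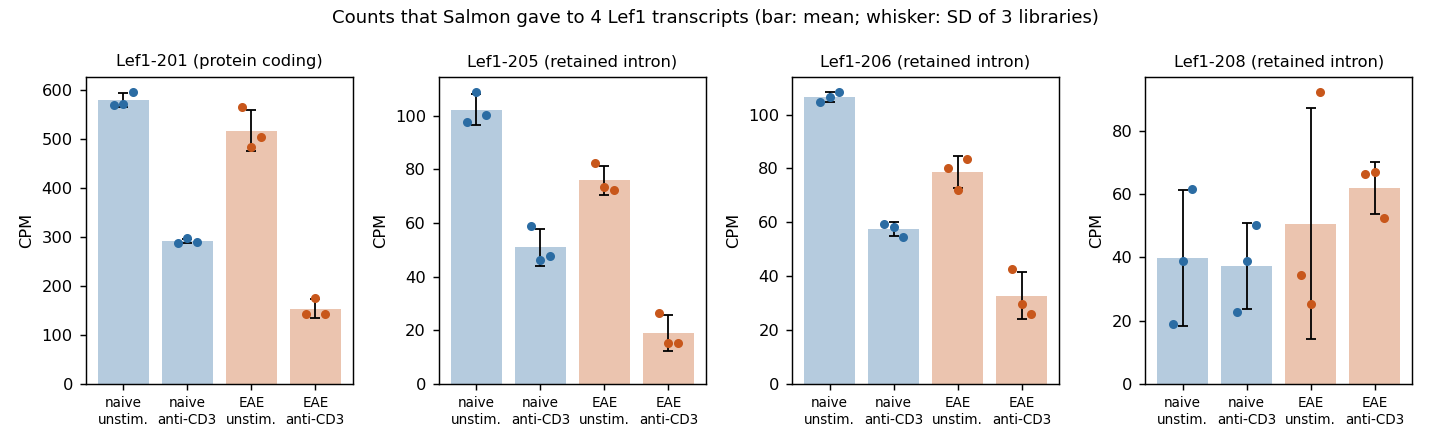
CPM that Salmon assigned to the 4 *Lef1* transcripts with a mean share of 10% or more in some T cell group (bars: means; whiskers: SD; points: 3 libraries; anti-CD3 is with control Ig beads). *Lef1-201*, *Lef1-205* and *Lef1-206* were lower in each activated library than in each unstimulated library of the same set, while the *Lef1-208* libraries overlapped.

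*Gata3*, *Maf* and *Rora*, the other helper fate factors, split by direction. *Gata3* stood at 19.2, 20.6 and 17.9 CPM in unstimulated and 16.4, 23.8 and 19.8 CPM in activated naive T cells, with overlapping libraries (log2 change 0.14 ± 0.10, adjusted p = 0.273). The EAE T cells went from 29.4, 29.4 and 27.6 CPM to 50.8, 56.7 and 65.0 CPM, and rose 2.07-fold (log2 change 1.05 ± 0.11, adjusted p = 4.89e-07). *Maf* rose in naive T cells from 9.91, 18.6 and 11.6 CPM to 17.9, 29.3 and 18.4 CPM. There replicate 2 was highest in each arm, so the arms overlapped although the test, which takes the replicate number into account, called it (log2 change 0.77 ± 0.11, adjusted p = 6.99e-06). In cells from EAE mice *Maf* rose from 27.7, 41.8 and 50.8 CPM to 67.3, 76.5 and 90.3 CPM, with no overlap (log2 change 1.03 ± 0.090, adjusted p = 6.49e-08). *Rora* fell from 57.4, 79.6 and 64.5 CPM to 42.3, 46.0 and 51.2 CPM in naive T cells (log2 change -0.46 ± 0.087, adjusted p = 2.24e-04). It fell further in EAE T cells, from 130.3, 157 and 154 CPM to 50.8, 72.1 and 72.7 CPM, 2.21-fold lower (log2 change -1.15 ± 0.093, adjusted p = 2.83e-08). With length-scaled counts the naive *Rora* change was -0.36 and was not called (adjusted p = 0.0522).

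*Foxp3*, the Treg factor, rose on activation in naive T cells. It stood at 36.8, 36.9 and 37.0 CPM unstimulated and at 67.5, 82.6 and 67.3 CPM activated, 2.04-fold higher (log2 change 1.03 ± 0.071, adjusted p = 7.55e-10). The EAE T cells stood at 138, 178.5 and 175 CPM unstimulated and at 107, 172 and 168 CPM activated, with overlapping libraries (log2 change -0.11 ± 0.081, adjusted p = 0.247). *Ikzf2* was 82.8, 109 and 77.8 CPM in unstimulated and 91.5, 110 and 83.3 CPM in activated naive T cells (log2 change 0.14 ± 0.068, adjusted p = 0.0951). In cells from EAE mice *Ikzf2* fell from 135, 208 and 175 CPM to 78.8, 109 and 115 CPM (log2 change -0.73 ± 0.079, adjusted p = 8.19e-07). *Tox* was 82.8, 86.4 and 71.1 CPM in unstimulated and 78.9, 76.7 and 63.0 CPM in activated naive T cells (log2 change -0.082 ± 0.066, adjusted p = 0.328). It fell from 81.2, 78.9 and 90.5 CPM to 37.6, 30.04 and 37.2 CPM in EAE T cells, 2.33-fold lower and with no overlap (log2 change -1.22 ± 0.087, adjusted p = 6.35e-09).

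In all, 6 of the 9 factors passed the test on activation in naive T cells, 3 higher and 3 lower, where 50.1% of 15150 genes tested passed, 27.1% higher and 23% lower. For EAE T cells 8 of 9 passed, 3 higher and 5 lower, where 63.1% of 14572 genes passed, 31.7% higher and 31.3% lower. Beside such shares, the counts do not set the 9 factors apart from other genes. The share of mitochondrial counts moved with the EAE arms: it was 5.28 to 7.00% in unstimulated and 1.27 to 2.81% in activated EAE T cells, against 4.54 to 4.82% and 3.83 to 4.15% in naive T cells. Markers of other cells moved too. The 6 myeloid markers summed to 133 to 361 CPM in unstimulated EAE T cells and 37.8 to 112 CPM in the activated ones, with *Lyz2* lower by a log2 change of -3.54 ± 0.24, against 32.3 to 39.7 and 37.2 to 58.5 CPM in naive T cells. The part of either in these results was not tested.

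**Figure D3:**
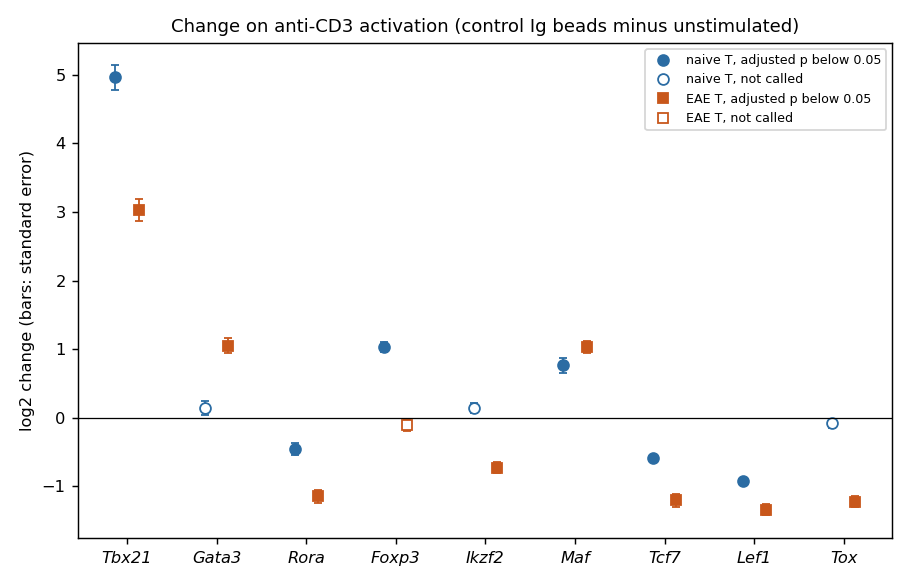
Log2 change of each factor on anti-CD3 activation in naive (blue circles) and EAE T cells (orange squares), with standard errors (filled: adjusted p below 0.05; open: not called). The *Tbx21* points stand highest in both sets, and all factors but *Gata3* and *Maf* lie lower in EAE than in naive T cells.

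The difference between the sets in the response to activation was tested as an interaction in the 12 unstimulated and control Ig libraries of both sets, which the comparisons above also use. Here 8 of the 9 factors passed, 1 with a positive and 7 with a negative difference, against 35.9% of 14598 genes, 17.7% positive and 18.2% negative. *Gata3* responded more strongly upward in EAE T cells (difference of log2 changes 0.93 ± 0.17, adjusted p = 1.66e-03). The other 7 differences were negative. *Tbx21* rose less in EAE T cells by 1.87 ± 0.23 on the log2 scale (difference -1.87, adjusted p = 1.01e-04). The *Foxp3* difference was -1.13 ± 0.13 (adjusted p = 6.97e-05), that of *Tox* -1.13 ± 0.11 (adjusted p = 2.41e-05) and that of *Ikzf2* -0.86 ± 0.11 (adjusted p = 1.86e-04). *Rora* and *Tcf7* differed by -0.67 ± 0.14 and -0.61 ± 0.12 (adjusted p = 3.68e-03 and 2.98e-03). The difference of *Maf* was 0.26 ± 0.15 and did not pass (adjusted p = 0.199). The *Lef1* difference of -0.41 ± 0.12 (adjusted p = 0.0213) was lost when any of 9 of the 12 libraries was left out (adjusted p = 0.0633 to 0.161) and turned to 0.48 ± 0.32 with length-scaled counts (adjusted p = 0.33). Without *Lef1-208* it was -0.58 ± 0.11 (adjusted p = 1.59e-03). With length-scaled counts *Rora* also lost its call (adjusted p = 0.0504). All 6 myeloid markers passed the same test, 5 of them with a negative difference, led by *Lyz2* at -4.58 ± 0.48 (adjusted p = 3.84e-05). Of the CD8 pair *Cd8a* passed (-1.12 ± 0.20) and *Cd8b1* did not (0.30 ± 0.13). Cytotoxic and NK markers passed in both directions, led by *Nkg7* at -1.29 ± 0.14 and *Gzma* at 2.11 ± 0.31. The B cell marker *Ms4a1* passed at -2.05 ± 0.28. The part of these markers was not tested.

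EAE and naive T cells were then compared directly, to see which factors differed between the sets before and after anti-CD3 activation. In unstimulated cells *Foxp3* was 4.70-fold higher in EAE (log2 change 2.23 ± 0.11, adjusted p = 3.33e-06) and *Tbx21* was 6.73-fold higher (log2 change 2.75 ± 0.31, adjusted p = 2.06e-04). *Maf* was 3.20-fold higher (1.68 ± 0.27, adjusted p = 1.36e-03), *Rora* 2.31-fold (1.21 ± 0.13, adjusted p = 1.67e-04), *Ikzf2* 2.03-fold (1.02 ± 0.18, adjusted p = 2.08e-03) and *Gata3* 1.58-fold (0.66 ± 0.10, adjusted p = 1.14e-03). The library values given above did not overlap between EAE and naive for any of these 6. How many of all genes were free of overlap was not counted, so this does not set the 6 apart. *Gata3* lost its call with length-scaled counts (log2 change 0.30 ± 0.29, adjusted p = 0.489). *Tcf7*, *Lef1* and *Tox* did not pass, with log2 changes of 0.039 ± 0.059, -0.15 ± 0.074 and 0.14 ± 0.094, although the *Lef1* libraries of the sets did not overlap. The count of 6 of 9, all higher, stands beside 35.7% of 13918 genes that passed in either direction and 18.6% that were higher.

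After activation 5 factors were higher in EAE and 3 were lower, against 51.6% of 13487 genes that passed, 27.7% higher and 23.9% lower. *Maf* was 3.77-fold higher (log2 change 1.92 ± 0.19, adjusted p = 2.99e-05), *Gata3* 3.01-fold (1.59 ± 0.15, adjusted p = 1.93e-05), *Foxp3* 2.18-fold (1.13 ± 0.18, adjusted p = 5.61e-04) and *Tbx21* 1.89-fold higher (0.92 ± 0.13, adjusted p = 2.64e-04). *Rora* was 1.48-fold higher (0.56 ± 0.15, adjusted p = 0.0115), with overlapping libraries, and lost its call without EAE replicate 3 (adjusted p = 0.0544). *Tox* was 1.96-fold lower in EAE (log2 change -0.97 ± 0.11, adjusted p = 6.67e-05), *Lef1* 1.46-fold lower (-0.55 ± 0.083, adjusted p = 4.67e-04) and *Tcf7* 1.46-fold lower (-0.54 ± 0.11, adjusted p = 2.52e-03). The *Lef1* change was -0.75 ± 0.080 without *Lef1-208* but 0.45 ± 0.18 with length-scaled counts (adjusted p = 0.0865). *Ikzf2* differed by 0.18 ± 0.15 (adjusted p = 0.344), and by 0.35 (adjusted p = 0.0192) without EAE replicate 1.

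**Figure D4:**
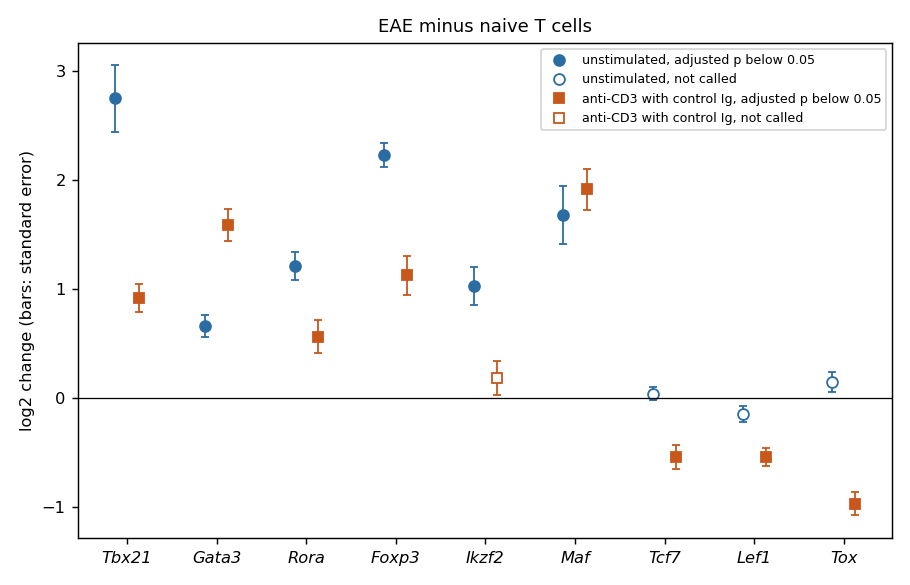
Log2 difference of EAE minus naive T cells for each factor, unstimulated (blue circles) and after anti-CD3 with control Ig (orange squares), with standard errors (filled: adjusted p below 0.05). *Maf* lies near 2 in both states, and *Tcf7*, *Lef1* and *Tox* lie near 0 in unstimulated and below 0 in activated cells.

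Markers of other cells moved with this comparison. The CD8 pair summed to 926 to 1096 CPM in unstimulated naive T cells and 19.5 to 26.2 CPM in unstimulated EAE T cells, and 6 cytotoxic and NK cell markers to 264 to 316 and 67.3 to 107 CPM. The defining NK gene *Ncr1* was at 2.05 to 3.63 and 6.77 to 7.72 CPM. The sum of 6 myeloid markers went the other way, from 32.3 to 39.7 CPM in naive to 133 to 361 CPM in EAE unstimulated libraries, with *Lyz2* at 2.05 to 3.505 and 55.4 to 134 CPM. The 5 B cell markers summed to 28.6 to 60.01 CPM in naive and 11.4 to 144 CPM in EAE unstimulated libraries, and the 5 erythroid markers to at most 5.14 CPM. None of these lists was at 0, and their part in the EAE differences was not tested. As a description, when each factor was set against the *Cd4* counts of the same library, the EAE to naive ratio in unstimulated cells was 4.82 for *Tbx21*, 3.31 for *Foxp3*, 2.28 for *Maf*, 1.65 for *Rora*, 1.46 for *Ikzf2*, 1.11 for *Gata3*, 0.776 for *Tox*, 0.721 for *Tcf7* and 0.629 for *Lef1*. In activated cells that ratio was 2.07 for *Maf*, 1.65 for *Gata3*, 1.18 for *Foxp3*, 1.03 for *Tbx21*, 0.797 for *Rora*, 0.613 for *Ikzf2*, 0.374 for *Lef1*, 0.369 for *Tcf7* and 0.279 for *Tox*. Against *Cd3e* every ratio was larger, from 0.812 for *Lef1* to 6.28 for *Tbx21* in unstimulated and from 0.346 for *Tox* to 2.57 for *Maf* in activated cells, with *Foxp3* at 4.26 and 1.47. The *Cd4* and *Cd3e* levels per cell are not known here.

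Anti-Btla beads were compared with control Ig beads to see whether engaging Btla, an inhibitory receptor of lymphocytes, shifted these factors in activated T cells. None of the 9 passed in naive T cells, where 0% of 15150 genes passed in edgeR's quasi-likelihood test. At an unadjusted p below 0.05 there were *Foxp3* (log2 change -0.20 ± 0.067, adjusted p = 0.406) and *Maf* (0.25 ± 0.097, adjusted p = 0.49), and DESeq2 called none of the 9. In EAE T cells none of the 9 passed and 0.0686% of 14572 genes did. *Tcf7* came closest: it stood at 765, 985 and 1005 CPM with control Ig and at 1084, 1086 and 1273 CPM with anti-Btla, with no overlap (log2 change 0.36 ± 0.088, unadjusted p = 9.34e-04 and adjusted p = 0.164 in edgeR). DESeq2 and edgeR without a filter on low counts both called it (adjusted p = 0.0108 and 1.01e-03). The mitochondrial share did not overlap between these arms either, at 1.27 to 2.81% with control Ig and 2.96 to 3.89% with anti-Btla, and its part was not tested. *Lef1* was the other factor with an unadjusted p below 0.05 (0.18 ± 0.082, adjusted p = 0.518).

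IFNb, a type I interferon used against multiple sclerosis, was tested over control Ig and anti-Btla beads together. No factor passed in naive T cells (0% of 15150 genes; all 9 had an adjusted p of 1 and none an unadjusted p below 0.05, and DESeq2 called none). In EAE T cells 3 of 9 were higher with IFNb, where 2.22% of 14572 genes passed and 0.782% were higher. *Foxp3* stood at 107, 172 and 168 CPM with control Ig and 140, 201 and 218 CPM with control Ig and IFNb, and at 131, 175 and 175 CPM with anti-Btla and 152, 205 and 181 CPM with both (log2 change 0.31 ± 0.057, adjusted p = 8.99e-03). The arms overlapped, while each library with IFNb was above the library of the same number without it. *Tox* stood at 37.6, 30.04 and 37.2 CPM with control Ig and at 41.4, 37.7 and 51.2 CPM with IFNb added. With anti-Btla it stood at 38.3, 31.8 and 43.7 CPM, and with both at 51.0, 41.3 and 49.4 CPM (log2 change 0.38 ± 0.061, adjusted p = 3.78e-03). *Tcf7* was 1.20-fold higher (0.26 ± 0.062, adjusted p = 0.0386). All 3 calls were lost without the replicate number in the model (adjusted p = 0.445 for *Foxp3*, 0.0929 for *Tox* and 0.181 for *Tcf7*) and with length-scaled counts (0.0578, 0.0578 and 0.13), and *Tcf7* was lost without any 1 of the 12 libraries compared (adjusted p = 0.0553 to 0.127). The mitochondrial share moved with IFNb in these cells, from 1.27 to 3.89% in the arms without it to 5.71 to 10.2% in the arms with it. Of the markers of other cells, *Itgam* (log2 change -0.47 ± 0.11, adjusted p = 0.0431) and *Gzma* (-0.49 ± 0.12, adjusted p = 0.0494) were lower with IFNb. The part of these in the result was not tested.

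B cells served as the contrast. In unstimulated naive mice 8 of the 9 factors were higher in T than in B cells (63.6% of 15871 genes passed, and 30.6% were higher), from *Maf* at 1.89-fold (log2 change 0.92 ± 0.21, adjusted p = 2.50e-03) to *Tcf7* at 418-fold (8.71 ± 0.18, adjusted p = 3.34e-11). *Tbx21* stood at 0.779, 0.599 and 1.02 CPM in T and 0.853, 0.663 and 0.687 CPM in B cells and did not pass (adjusted p = 0.67). In EAE mice all 9 were higher in T cells (54% of 16686 genes passed, and 27% were higher), with *Tbx21* 4.06-fold and *Maf* 6.97-fold higher (adjusted p = 3.00e-03 and 1.60e-05). T and B cell libraries were counted against slightly different transcript sets, and cell type and batch cannot be told apart. *Gata3* was lowest in B cells at 0 to 0.247 CPM, with 3 of 30 libraries at 0, and was not tested in the B cell sets.

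**Figure D5:**
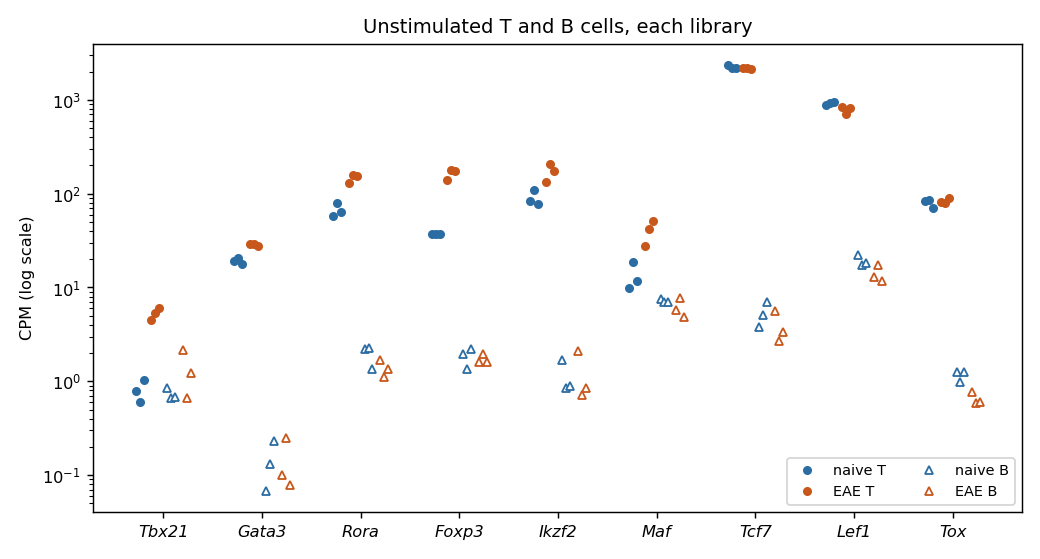
CPM of each factor on a logarithmic axis in unstimulated T cells (filled circles) and B cells (open triangles), 3 libraries for each of the naive (blue) and EAE (orange) groups. The cell types are farthest apart for *Tcf7* and overlap for *Tbx21* in naive mice.

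*Lef1*, *Maf*, *Tcf7* and *Tbx21* were the factors called in at least 1 comparison within the B cell sets. On receptor engagement *Lef1*, *Maf* and *Tcf7* fell in naive B cells, from 22.2, 17.4 and 18.4 to 13.6, 12.8 and 12.6 CPM for *Lef1* (log2 change -0.46 ± 0.078, adjusted p = 2.01e-04), by 1.08 ± 0.19 on the log2 scale for *Maf* (adjusted p = 2.29e-04) and by 0.66 ± 0.19 for *Tcf7* (adjusted p = 0.0113). They fell in EAE B cells too, with log2 changes of -0.66 ± 0.12, -1.18 ± 0.18 and -0.82 ± 0.17. These 3 of 8 tested factors stand beside 40.2% of 16635 genes in naive B cells, 17.5% lower, and 39.8% of 17007 genes in EAE B cells, 18.8% lower. With anti-Btla instead of control Ig, *Maf* was higher at 5.24, 7.61 and 5.36 against 2.47, 3.77 and 3.24 CPM in naive B cells (log2 change 0.85 ± 0.19, adjusted p = 2.51e-03). In EAE B cells *Maf* was at 6.87, 6.17 and 5.55 against 2.38, 2.15 and 2.71 CPM (1.25 ± 0.20, adjusted p = 2.86e-04). Neither pair of arms overlapped. *Lef1* was higher too (0.46 ± 0.078 in naive and 0.58 ± 0.13 in EAE B cells, adjusted p = 2.98e-04 and 3.31e-03), *Tcf7* passed in EAE B cells (0.61 ± 0.19, adjusted p = 0.0232) and *Tbx21* was lower in naive B cells at 0.500, 0.247 and 0.396 against 1.48, 0.781 and 1.13 CPM (-1.63 ± 0.30, adjusted p = 5.30e-04). The background was 32.8% of genes in naive B cells, 13.1% higher and 19.7% lower, and 30.1% in EAE B cells, 13.6% higher. In EAE B cells the *Tcf7* and *Lef1* calls for anti-Btla were lost without the replicate number in the model (adjusted p = 0.27 and 0.105), as were the *Tcf7* calls for activation (0.212 in naive and 0.113 in EAE B cells). In naive B cells the *Lef1* calls were lost with length-scaled counts (adjusted p = 0.0935 for anti-Btla and 0.0576 for activation), and the *Tcf7* call for activation without unstimulated replicate 2 (0.087). *Tcf7* was also lost for anti-Btla without any 1 of 5 of the 6 libraries (adjusted p = 0.0629 to 0.108). Some markers of other cells moved in the same comparisons. With anti-Btla *Lyz2* was higher in naive and EAE B cells (log2 change 0.61 ± 0.17 and 0.71 ± 0.19), as were *Cd3e* and *Klrk1* in naive B cells (2.06 ± 0.56 and 1.14 ± 0.21) and *Ncr1* in EAE B cells (0.95 ± 0.28). On activation *Cd3e* (-1.51 ± 0.56) and *Klrk1* (-0.92 ± 0.21) were lower in naive B cells, and *Klrk1* (-0.74 ± 0.20) and *Klrb1c* (-0.67 ± 0.23) in EAE B cells, while *Adgre1* was higher in both (0.75 ± 0.090 and 0.98 ± 0.13). The T cell list summed to 1.82 to 5.63 CPM, the cytotoxic and NK list to 2.87 to 27.97 CPM and the myeloid list to 59.4 to 107 CPM over all B cell libraries, and their part was not tested. *Tbx21* reached 8.39 CPM in EAE B control Ig replicate 1, against 0.599 and 0.839 CPM in replicates 2 and 3. None of the 8 factors tested passed with IFNb in either B cell set (0% of genes in both; no unadjusted p was below 0.05 among the factors, and DESeq2 called none).

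Other genes of each fate were counted from lists, which do not include the 9 factors. Of all genes, 27.1% were higher and 23% lower on activation in naive T cells, and 31.7% and 31.3% in EAE T cells. The Treg list held mostly receptors and surface proteins common in Treg cells, along with *Ikzf4*, *Il10* and *Capg*. On activation this list had 12 of 14 genes higher and 1 lower in naive T cells, led by *Il2ra*, the high-affinity IL-2 receptor chain (log2 change 4.26 ± 0.058). In EAE T cells it had 9 higher and 2 lower (*Il2ra* 3.66 ± 0.14). The median log2 change of the list was 0.92 and 1.02, against -0.024 and -0.071 over all genes. *Il2ra* is also a general activation gene. The Th1 list had 8 higher and 2 lower of 11 tested in naive T cells, with *Ifng* at 5.06 ± 0.25 and *Il12rb2* at 3.69 ± 0.13. In EAE T cells 5 rose and 5 fell of 12, with *Il12rb2* at 2.86 ± 0.13 and *Stat4* at -1.63 ± 0.071. The Th17 list had 4 higher and none lower of 10 in naive T cells and 8 higher and 1 lower of 11 in EAE T cells, where the cytokine *Il17a* rose by 5.79 ± 0.35 and *Irf4* by 4.24 ± 0.13. In the Th2 list 3 of 6 rose in naive T cells, and 5 of 8 rose and 1 fell in EAE T cells, with the cytokine *Il13* at 5.67 ± 0.40 and the chemokine receptor *Ccr4* at 4.43 ± 0.10. In unstimulated EAE T cells *Il17a* and *Il13* averaged 0.58 and 0.55 CPM, so their changes start near the floor.

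Genes tied to *Tcf7* and *Lef1* were counted in the same way, beside the shares of all genes just given. Of 10 tested partners and targets, 7 fell and 1 rose in naive T cells, and 5 fell and 2 rose in EAE T cells. They included *Axin2*, a classic Wnt target (log2 change -1.08 ± 0.11 in naive and -0.99 ± 0.18 in EAE), the coactivator gene *Bcl9l* (-1.01 ± 0.088 and -1.63 ± 0.13) and the corepressor gene *Tle4* (-0.48 ± 0.044 and -1.40 ± 0.087). Of 11 naive and memory T cell genes, 7 fell and 4 rose in naive T cells, with the IL-7 receptor gene *Il7r* at -1.64 ± 0.072. In EAE T cells 5 fell and 4 rose, with *Il7r* at -4.92 ± 0.16. In the follicular helper list, 6 of 9 rose and 3 fell in naive T cells and 3 rose and 6 fell in EAE T cells. There *Bcl6*, its leading factor, changed by 1.09 ± 0.095 in naive and -2.47 ± 0.11 in EAE T cells, and the difference itself was -3.56 ± 0.15 (adjusted p = 1.89e-07). The cytokine *Il21* rose by 7.67 ± 0.17 in EAE T cells. Of 10 further lineage factors, 6 rose and 3 fell in naive T cells and 2 rose and 3 fell in EAE T cells.

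The lists were also counted for EAE against naive in unstimulated T cells, where 18.6% of all genes were higher and 17% lower. Treg genes counted 9 higher and 1 lower of 14 (*Ctla4* 1.42 ± 0.14), Th1 genes 8 and 2 of 11, Th17 genes 7 and 0 of 9 (*Ccr6* 2.55 ± 0.29) and Th2 genes 5 and 0 of 5 (*Ccr4* 1.96 ± 0.15). Their median log2 changes were 1.29, 1.73, 1.25 and 1.82, against -0.0031 over all 13918 genes. The Tcf and Lef partners and targets had 2 higher and 7 lower of 10, although *Tcf7* and *Lef1* themselves did not pass. The 2 higher were *Tle3* (0.75 ± 0.089) and *Bcl9* (0.49 ± 0.11), and the lower included *Axin2* (-0.67 ± 0.14). Only genes that passed the filter on low counts enter these counts.

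Over the 30 T cell libraries, each factor was set against 8410 protein-coding genes (mean CPM of 10 or more) by Pearson correlation of log2 CPM. The libraries fall into 10 groups, so the values mainly describe differences between groups. *Tbx21* was most like *Irf8* (r = 0.989), *Irf4* (0.980) and *Larp1* (0.978). *Gata3* was most like *Icos* (0.978), *Hipk2* and *Ncoa3*, and *Maf* was most like *Ctla4* (0.974), *Tigit* and *Icos*. *Foxp3* was closest to *Serpina3g* (0.973), *Vps54* and *Cd44*, *Tcf7* to *Tcp11l2* (0.966), *St6gal1* and *Ctdsp2*, and *Lef1* to *Ranbp10* (0.985), *Prrc2b* and *Usp28*. *Tox* was closest to *Kansl1* (0.935), *Cd84* and *Foxp1*, and *Rora* to *Dst* (0.940), *Jmjd1c* and *Gpnmb*. *Ikzf2* had the lowest leading value, 0.820 with *Gng2*, followed by *Ccl9* and *Gas7*. Among the 9 themselves the highest values were 0.938 for *Gata3* and *Maf*, 0.928 for *Foxp3* and *Maf* and 0.898 for *Tcf7* and *Lef1*, and the lowest was -0.916 for *Tbx21* and *Lef1*.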

How the data were processed

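The authors counted reads with Salmon against mouse transcripts (GENCODE names on GRCm38) and deposited 1 table per run with estimated counts and TPM for each transcript. The sources used here give no library kit, strand setting or Salmon version. Here 67 tables gave 60 libraries, since 7 T cell libraries had 2 runs, whose counts were added. The deposited expected counts were summed to 35612 genes by GENCODE M21 and rounded. Transcripts without a gene held 0.158 to 0.677% of counts and were left out. CPM is a gene's count scaled to the library's total gene count. TPM, which the authors' tables give per transcript, was summed to genes and used to compare genes.

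Each comparison was fitted over all genes with edgeR 4.0.16 (TMM, quasi-likelihood F test, filterByExpr with a minimum count of 10), and p-values were adjusted over all genes by Benjamini-Hochberg, with calls made under 0.05. Activation, anti-Btla and IFNb were tested within each set of 15 libraries with the replicate number as a block. The study's general linear models include replicate, but its methods give no design for the RNA-seq. IFNb was tested as the mean of its effects with control Ig and with anti-Btla. EAE was compared with naive, and T with B cells, in 6 libraries without a block. The difference of activation was an interaction over 12 libraries with the replicate number nested in naive or EAE. A standard error is the log2 change divided by the root of F. DESeq2 1.42.0, RLE normalization, no low-count filter, length-scaled counts, leaving out each library and dropping the block were alternatives. R 4.3.3 and Python 3.11.15 were used, and the scripts were tested on simulated counts with changes set in genes drawn at random. For activation, 64% of 1.5-fold and 68% of 2-fold changes were recovered in naive T cells, and 36% and 58% in EAE T cells. For EAE against naive in unstimulated T cells 33% and 61% were recovered. The simulations changed 100 genes per fold size, far fewer than passed in the real comparisons, and set no replicate effect. Their rates are therefore not those of the 9 factors. Anti-Btla and IFNb were not simulated. A factor that did not pass may still have changed. The smallest library held 6694410 counts, which limits low genes most.

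The 9 factors and all lists were chosen with earlier results of these data known. The text names every factor, and among list genes up to 4 per list with the smallest p. Sequences are RefSeq's.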

Additional observations from a re-analysis of the deposited data

Results flagged for a closer look

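The change on anti-CD3 activation differed between EAE and naive T cells for 8 of the 9 factors, tested as an interaction in edgeR over 3 libraries in each of 4 groups. As EAE minus naive differences of log2 change, the values were -1.87 for *Tbx21*, 0.93 for *Gata3*, -0.67 for *Rora*, -1.13 for *Foxp3*, -0.86 for *Ikzf2*, -0.61 for *Tcf7*, -0.41 for *Lef1* and -1.13 for *Tox*. *Tbx21* rose in both sets and *Rora* and *Tcf7* fell in both, so for these the sets differed in size and not in direction. *Lef1* fell in both as well, but its difference was lost without any 1 of 9 of the 12 libraries (adjusted p = 0.0633 to 0.161) and was 0.48 with length-scaled counts (adjusted p = 0.33), where its change in EAE T cells was -0.13 (adjusted p = 0.702). *Gata3*, *Ikzf2* and *Tox* passed the test in EAE T cells and not in naive T cells, and *Foxp3* the reverse. Across all 14598 genes 35.9% differed in this way, and the naive and EAE sets also differed in CD8 transcripts, in the mitochondrial share and in myeloid markers (*Lyz2* -4.58 in the same test), whose part was not tested. No group had more than 3 libraries, so single libraries were not screened for outlying values.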

How the results depend on the processing

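Over the 9 factors, 1792 alternative results stayed on their side of the threshold, 44 lost a call, 10 gained one and 2 reversed, the cause of which was not tested. In all 88 changed sign, and apart from those 2 they were called neither before nor after. The 2 were *Lef1* with length-scaled counts, at 0.48 for the difference of activation and 0.45 for EAE against naive activated T cells. The number of factors called for anti-Btla in EAE T cells was 1 with DESeq2 and 1 without a low-count filter, against 0. For IFNb in EAE T cells it was 0 with length-scaled counts and 0 with no replicate block, against 3. For anti-Btla in EAE B cells it was 1 with no replicate block, against 3. Without 1 library the T cell counts ran from 6 to 6 and 8 to 8 for activation in naive and EAE T cells, 7 to 8 for their difference, 6 to 6 and 7 to 9 for EAE against naive in unstimulated and activated cells, and 2 to 3 for IFNb in EAE T cells. *Ikzf2* on activation in naive T cells was called only without a low-count filter (log2 change 0.18, adjusted p = 0.0167).

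Replicate numbers come from the labels, which do not say what a number shares. Deviations from group means correlated at over 0.1 in 20 of 30 same-numbered pairs in naive T, 27 of 30 in EAE T, 19 of 30 in naive B and 27 of 30 in EAE B cells, with medians of 0.121, 0.184, 0.118 and 0.233. Differently numbered pairs had medians of -0.054, -0.099, -0.058 and -0.154, so same-numbered libraries were more alike at the median in every set. Not every same-numbered pair passed 0.1, and the lowest values were 0.039, 0.051, -0.049 and 0.04 in the same order. What the libraries of a number share cannot be read from these values. The block was kept because the study's general linear models include replicate. Its methods give no design for the RNA-seq, and calls that rest on the block are to be read with that limit. Without the replicate block the genes called fell from 323 to 70 for IFNb in EAE T cells, from 10 to 0 for anti-Btla in EAE T cells, from 5124 to 2775 for anti-Btla and from 6766 to 4403 for activation in EAE B cells. Without a low-count filter the genes called for anti-Btla and IFNb were 254 and 96 in naive T cells and 291 and 659 in EAE T cells. With DESeq2 they were 36 and 6 in naive and 107 and 513 in EAE T cells.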

Other observations

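Most factors were counted mainly from 1 transcript. In the T cell groups *Tcf7-201* held 89.6 to 93.1% of *Tcf7* counts, *Gata3-201* 92.7 to 95.8% and *Rora-201* 77.3 to 87.5%, as group means. *Foxp3* was spread over 4 transcripts. *Foxp3-203* was at 6.54 CPM in unstimulated and 24.3 CPM in activated naive T cells and at 66.7 and 74.6 CPM in EAE T cells, while *Foxp3-204* was at 17.1 and 19.4 CPM and at 36.6 and 29.5 CPM. How Salmon divides reads among overlapping transcripts limits these values.

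The activated EAE T cells stood apart in helper cytokine genes. Against activated naive T cells the log2 difference was 8.76 for *Il13*, 7.78 for *Il22* and 6.88 for *Il21*, while *Eomes*, a T-box factor related to T-bet, was at -3.75. In activated naive T cells *Il13* and *Il22* averaged 0.071 and 0.13 CPM, so both passed the low-count filter through the EAE libraries. Their direction was set by that filter, their size rests on values near the floor, and the list counts below include them. In that comparison 9 of 11 Th17 genes and 6 of 8 Th2 genes were higher and none lower, and 4 of 11 Th1 genes were higher and 6 lower, against 27.7% and 23.9% of all genes. Markers of CD8 T cells were far lower in the same comparison, with *Cd8a* at -7.18 and *Cd8b1* at -4.85. Among cytotoxic and NK cell markers *Klrd1* was at -4.02, *Nkg7* at -2.30 and *Klrk1* at -1.52, while *Gzma* was at 2.48. Their part in these differences, that of *Eomes* included, was not tested.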
